A study of Mus musculus with 2 samples.

Results

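Oxidative phosphorylation is the last stage of respiration. Electrons pass through complexes I to IV of the inner mitochondrial membrane, with cytochrome c as the mobile carrier between complexes III and IV, protons are pumped across the membrane, and complex V, the ATP synthase, uses their return to make ATP. Its subunits come from both genomes: most are encoded in the nucleus and imported, while a small core of the proton-pumping complexes is encoded on the mitochondrial chromosome and transcribed as long RNAs that are cut into single messages. Muscle fibres depend heavily on this pathway, and neutrophils are known for relying mostly on glycolysis.

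The genes described here were taken by name: 88 nuclear genes of complexes I to V and cytochrome c, and the 13 protein-coding genes of the mitochondrial chromosome, whose symbols start with mt-, together 101 of the 32285 genes in the files. Of the nuclear genes, 37 belong to complex I, 4 to complex II, 9 to complex III, 20 to complex IV and 17 to complex V, and 1, Cycs, is cytochrome c. The mitochondrial genes comprise 7 of complex I, 1 of complex III, 3 of complex IV and 2 of complex V. All 101 had an entry in the files. Cox7b2 and Cox8c were listed with 0 UMIs in both libraries, and Cox4i2 had 44 over both, so 3 members stayed below 50 UMIs (UMIs are unique molecular identifiers, which count captured RNA molecules).

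The cells came from male Clec3b.creERT2; Ai14.R26.tdTomato mice, in which the Clec3b promoter drives a tamoxifen-inducible Cre that switches on a red reporter. Both groups carry both alleles and received tamoxifen 2 weeks before a stabilized fracture of the right femur, and tissue was taken 3 weeks after surgery. In the intact group, intact femoral diaphyses were digested together with the muscle around them, and in the callus group the fracture callus was digested. Tissue of 3 littermates was pooled per group, red cells were sorted, and 1 library per group was made with the 10x 3′ kit (version 3), so no test between groups can be made, all intervals below are exact 95% intervals of counting error alone, and a difference between groups cannot be told apart from a difference between the 2 libraries. The sort also held many blood cells, which do not belong to the labelled lineage, and barcodes with muscle fibre markers. The paper reports that cells of the myogenic lineage lack Clec3b expression. The label "male" and the RNA did not match, since Xist, a transcript of female cells, was found in 97.5% of 201 intact and 98.1% of 157 callus fibroblast-like cells with at least 5000 UMIs.

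The intact library held 1214 cells with at least 500 genes (median 4904 UMIs) and the callus library 3365 (median 6732 UMIs), with 1 cell barcode shared between them. Marker genes, none of them a member, assigned 91.2% and 91.3% of these cells to a type, named as X-like below. Per cell type, the share of the 88 nuclear members is given as a percent of all UMIs outside the 13 mitochondrial genes, and the mitochondrial share as a percent of all UMIs. Levels of a nuclear member are UMIs per 1000000 UMIs outside the mitochondrial genes, and levels of a mitochondrial member are per 1000000 of all UMIs, both called CPM. Because the kit counts 3′ ends, these values were not scaled by transcript length. Several nuclear members have near-identical processed pseudogenes, and reads shared with them may be lost, so their levels are uncertain.

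Several sequences are printed here beside the values that follow. The first set shows promoter letters of nuclear members, from RefSeq's promoter table (GRCm38.p6, 250 bases before to 50 after the start), each written 5′ to 3′ on the gene's strand with the matched motif in capitals. Shown are the NRF1 motif (GCGCATGC, or GCATGCGC on the other strand) of cytochrome c at chr6:50566592-50566659, of the complex II subunit Sdhb at chr4:140961187-140961254 and of the widely used COX6A form Cox6a1 at chr5:115349083-115349150, the YY1 motif (AAGATGGCG) of the complex I subunit Ndufc1 at chr3:51408906-51408963, the GABP motif (CCGGAAGT, or ACTTCCGG) of the widely used COX8 form Cox8a at chr19:7217585-7217652, and the myogenic E-box (CAGCTG) of the muscle form Cox8b at chr7:140900430-140900495. The window of Sdhb lies on the forward strand and the others on the reverse strand. They are shown because Cycs and Cox8b were among the members that were highest in muscle relative to stroma, Sdhb and Ndufc1 stand for the members that moved with them, and Cox6a1 and Cox8a departed from them.
Cycs: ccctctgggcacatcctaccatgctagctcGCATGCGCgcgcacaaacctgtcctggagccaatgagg
Sdhb: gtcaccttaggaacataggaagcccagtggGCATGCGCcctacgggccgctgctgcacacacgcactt
Ndufc1: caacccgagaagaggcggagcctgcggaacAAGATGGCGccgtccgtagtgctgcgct
Cox6a1: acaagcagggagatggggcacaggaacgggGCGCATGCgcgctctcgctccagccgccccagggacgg
Cox8a: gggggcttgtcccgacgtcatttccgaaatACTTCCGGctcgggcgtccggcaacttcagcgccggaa
Cox8b: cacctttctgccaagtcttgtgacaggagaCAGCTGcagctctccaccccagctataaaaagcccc

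Promoters were given for 69 of the 88 nuclear members, and 6 motifs were searched on both strands. The NRF1 motif, named for a factor known to drive respiratory genes, stood in 11 of the 69 promoters (15.9%), against 3.05% of all 27025 promoters. The YY1 motif stood in 7 (10.1% against 1.64%), and the ESRRA motif AAGGTCA in 8 (11.6% against 5.38%). The GABP motif was found in 5 (7.25% against 4.31%). The muscle-related letters were no more frequent among the members than in the table: the myogenic E-box stood in 6 (8.70% against 18.3%) and the MEF2 motif TAAAAATA in 0 (against 3.09%). These are matches of letters in a window, not sites of binding.

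The second sequence is mt-Atp8, which encodes a small subunit of complex V and whose level differed most between the libraries among the mitochondrial members. It lies on the forward strand at chrM:7766-7969 (GRCm38, from the GENCODE M21 annotation), is 204 bases long, and its last 43 bases (chrM:7927-7969, in capitals) are also the start of mt-Atp6, the other complex V gene of this genome. The pair shares 1 processed RNA, as do mt-Nd4l and mt-Nd4, which overlap by 7 bases.
mt-Atp8: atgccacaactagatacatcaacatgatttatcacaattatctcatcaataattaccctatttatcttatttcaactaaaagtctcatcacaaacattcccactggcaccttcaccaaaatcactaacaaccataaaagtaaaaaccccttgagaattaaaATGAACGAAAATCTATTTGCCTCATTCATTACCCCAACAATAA

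Over all cells, the 13 mitochondrial genes took 1.28% of UMIs in the intact library and 1.97% in the callus library, and the nuclear members 2.20% and 2.40%. The spread between cell types was far larger than this. Myofibre-like cells had the highest nuclear share of any type with at least 20 cells in both libraries: 11.3% [11.2–11.4] in 75 intact cells and 8.69% in 244 callus cells. Fibroblast-like cells, the stromal cells that the Clec3b allele was made to label, had 1.63% in 288 intact and 1.44% in 218 callus cells. The nuclear share of myofibre-like cells was thus 6.92 times that of fibroblast-like cells in the intact library [6.81–7.02] and 6.05 times in the callus library [5.96–6.14].

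The mitochondrial genes went the other way in the same cells. Their share was 0.391% [0.369–0.414] of UMIs in intact and 0.823% in callus myofibre-like cells, against 1.49% and 2.22% in fibroblast-like cells, a ratio of 0.263 [0.248–0.279] and 0.370 [0.361–0.380]. In myofibre-like cells there were 28.8 nuclear member UMIs for each mitochondrial UMI in the intact library and 10.5 in the callus library. In fibroblast-like cells there were 1.08 and 0.633. The low mitochondrial share was seen in most barcodes of this gate, since 64 of 75 and 199 of 244 were under 1%. These barcodes held a median of 844 (intact) and 712 (callus) genes, against 2694.5 and 2784.5 in fibroblast-like cells. Whether they held whole fibres or fragments of fibres was not tested. The median myofibre-like cell had 0.0827% (intact) and 0.181% (callus) mitochondrial UMIs, and 17 and 41 cells had no mitochondrial UMI at all. Against the 18 intact myogenic progenitor-like cells, the muscle stem cell type nearest to them, the mitochondrial ratio was 0.171 and the nuclear ratio 6.07.

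**Figure D1:**
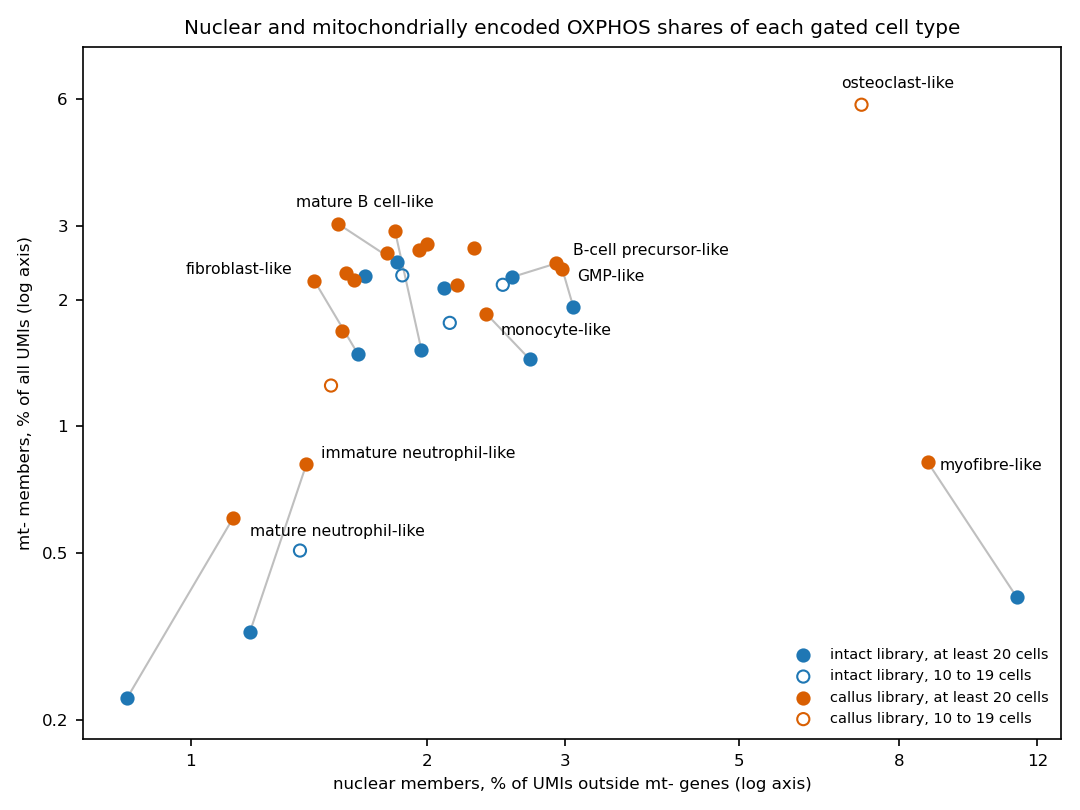
Mitochondrial share (percent of all UMIs, y axis) against nuclear member share (percent of UMIs outside the mitochondrial genes, x axis), both on log axes, with 1 point per cell type and library, open below 20 cells, and grey lines joining the libraries of 9 types (GMP, granulocyte-monocyte progenitor). Myofibre-like cells sit apart at a nuclear share of 11.3% and 8.69% with mitochondrial shares of 0.391% and 0.823%, and osteoclast-like cells sit high on both axes.

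The cells in the myofibre gate were not all alike. In the intact library 71 of 75 gave at least 5% of their UMIs to muscle markers, and in the callus library 219 of 244. There the nuclear share was 12.2% and 10.6% and the mitochondrial share 0.326% and 0.419%. The other 4 and 25 cells had mitochondrial shares of 1.10% and 2.03% and nuclear shares of 1.26% and 3.02%, near the values of fibroblast-like cells for the mitochondrial genes. Leaving them out therefore widened the gap between the genomes. The gap was present in shallow and deep cells. Myofibre-like cells with under 2000 UMIs had mitochondrial shares of 0.637% (29 intact cells) and 0.925% (123 callus cells), and those with more had 0.350% and 0.792%.

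**Figure D2:**
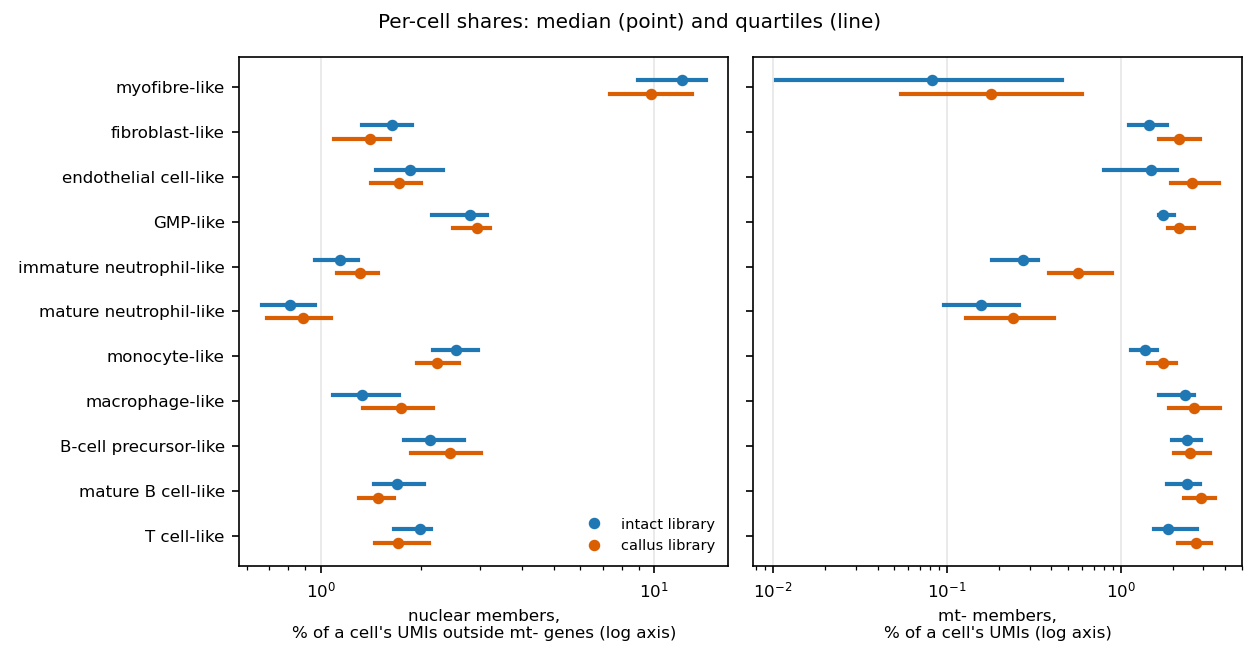
Median (point) and quartiles (line) over single cells of the nuclear member share (left) and the mitochondrial share (right), in percent on log axes, for each cell type and library, with quartiles of 0 drawn at 0.01. In fibroblast-like cells both shares lie within a narrow band, while the median myofibre-like cell has 12.1% (intact) and 9.77% (callus) nuclear member UMIs beside 0.0827% and 0.181% mitochondrial UMIs.

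The difference between myofibre-like and fibroblast-like cells ran through nearly the whole nuclear set. Of the 83 nuclear members with at least 50 UMIs over the 2 types in the intact library, 80 were at least 2-fold higher in myofibre-like cells, where 11.6% of all genes were, and 2 were at least 2-fold lower, where 62.5% of all genes were. In the callus library 78 of 83 were higher (14.6% of all genes) and 0 lower (49.9% of all genes). The median log2 ratio of the nuclear members was 2.62 (intact) and 2.39 (callus), against -1.75 and -0.998 for all genes. All 13 mitochondrial genes were at least 2-fold lower in both libraries, with medians of -1.93 and -1.52, against the -1.75 and -0.998 of all genes. Since most genes were lower in myofibre-like cells, this count lies nearer to the background than that of the nuclear members.

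All complexes took part. In the intact library all 37 nuclear genes of complex I, all 9 of complex III and all 17 of complex V were past 2-fold higher, with median log2 ratios of 2.54, 3.14 and 2.80. Complex IV had 13 higher and 2 lower of 15 tested, and complex II, the only complex with no mitochondrial gene, 3 higher of 4 with the smallest median, 2.11. The exception in complex II was Sdha, the flavoprotein subunit, with 109 and 125 CPM in intact and callus myofibre-like cells and 97.0 and 95.9 CPM in fibroblast-like cells. Its ratio was 1.13 [0.754–1.63] in the intact library and 1.30 in the callus library, and it was past 2-fold in neither.

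Cytochrome c was among the members that differed most. Cycs stood at 1883 CPM in intact and 1078 CPM in callus myofibre-like cells, and at 81.7 and 63.9 CPM in fibroblast-like cells, ratios of 23.1 [19.4–27.6] and 16.9 [13.8–20.8]. Cox5a, a subunit of complex IV, had ratios of 24.2 [21.0–28.1] and 16.1 [13.99–18.5]. Atp5g1, 1 of the genes for the c subunit whose ring turns in the ATP synthase, stood at 3879 and 2875 CPM against 201 and 165 CPM. In each of these genes both myofibre-like values lay above both fibroblast-like values. This does not by itself set them apart, since 80 (intact) and 78 (callus) of 83 tested nuclear members were at least 2-fold higher. Of all genes 11.6% and 14.6% were.

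Several of the most abundant members of their complexes differed by less than these but in the same direction, with Cox8a, the nuclear member with the most UMIs, going the other way (described with its muscle form). Atp5e, the epsilon subunit of complex V, stood at 5669 CPM (intact) and 3948 CPM (callus) in myofibre-like cells and at 635 and 490 CPM in fibroblast-like cells. Cox7c, a small subunit of complex IV, had 4537 and 3055 CPM against 591 and 448 CPM. Uqcrq, a subunit of complex III, had 2423 and 1841 CPM against 193 and 196 CPM. Sdhb, the iron-sulfur subunit of complex II, had 933 and 551 CPM against 106 and 84.7 CPM. In all 4 genes the intact myofibre-like value was the higher of the 2 libraries. Of the nuclear member UMIs, complex I made up 27.6% and 28.7% in myofibre-like cells and 33.0% and 32.4% in fibroblast-like cells, and cytochrome c 1.67% and 1.24% against 0.50% and 0.44%.

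**Figure D3:**
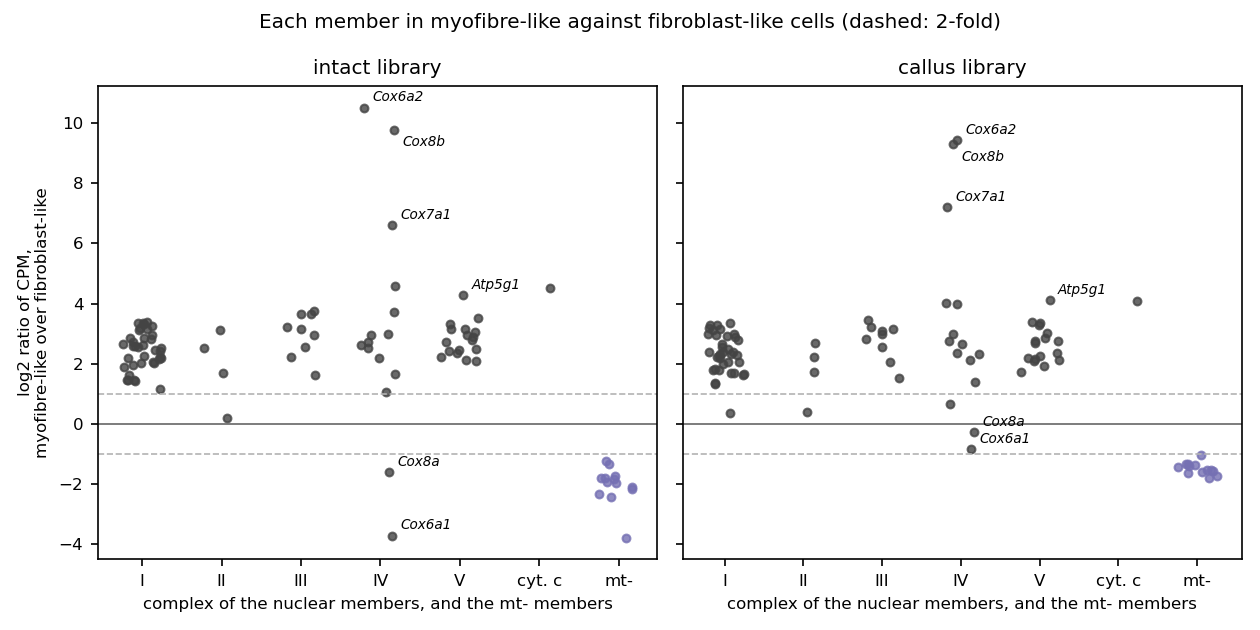
Log2 ratio of the level in myofibre-like over fibroblast-like cells for each tested member, grouped by complex and genome, with 1 point per gene, the libraries in separate panels and dashed lines at 2-fold. Nuclear members of complexes I, II, III and V lie above 0 in both libraries, Cox6a1 and Cox8a lie below 0 in complex IV, and all 13 mitochondrial genes lie below 0.

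The members that departed from the rest were subunits with a muscle form. Complex IV has pairs of genes for several small subunits, of which 1 is used in heart and skeletal muscle. Cox6a1, the widely used COX6A gene (chr5:115345642-115348981), had 3 UMIs in intact and 55 UMIs in callus myofibre-like cells, against 305 and 209 UMIs in fibroblast-like cells, ratios of 0.0658 [0.0135–0.194] and 0.561 [0.409–0.759]. Cox8a (chr19:7215153-7217616) had ratios of 0.328 [0.251–0.423] and 0.824 [0.723–0.937]. The muscle forms made up most of these subunits instead. Cox6a2 (chr7:128205435-128206387) made up 99.8% [99.3–99.9] of COX6A UMIs in intact and 97.5% [96.7–98.1] in callus myofibre-like cells, and Cox8b (chr7:140898945-140900446) 92.0% and 80.3% of COX8 UMIs. Fibroblast-like cells had 5 and 6 UMIs of Cox6a2 and 5 and 4 UMIs of Cox8b.

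Cox7a1, the muscle form of COX7A (chr7:30184144-30186078), shared the subunit with the widely used Cox7a2 and did not replace it. COX7A UMIs were counted over Cox7a1, Cox7a2 and the related Cox7a2l. Of these, Cox7a1 took 43.0% [39.6–46.4] in intact and 34.1% [31.9–36.4] in callus myofibre-like cells, where Cox7a2 took 45.6% and 52.3%. The c subunit of complex V also had another main source. Its 3 genes encode the same mature protein, and Atp5g1 made up 59.0% and 58.1% of their UMIs in myofibre-like cells but 26.0% and 25.02% in fibroblast-like cells, where Atp5g2 led with 44.2% and 45.4%. Over types with at least 50 cells, Cox8b, Cox6a2, Cox7a1, Atp5g1 and Ndufa5, a complex I subunit, varied most among all members, and each was highest in myofibre-like cells.

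**Figure D4:**
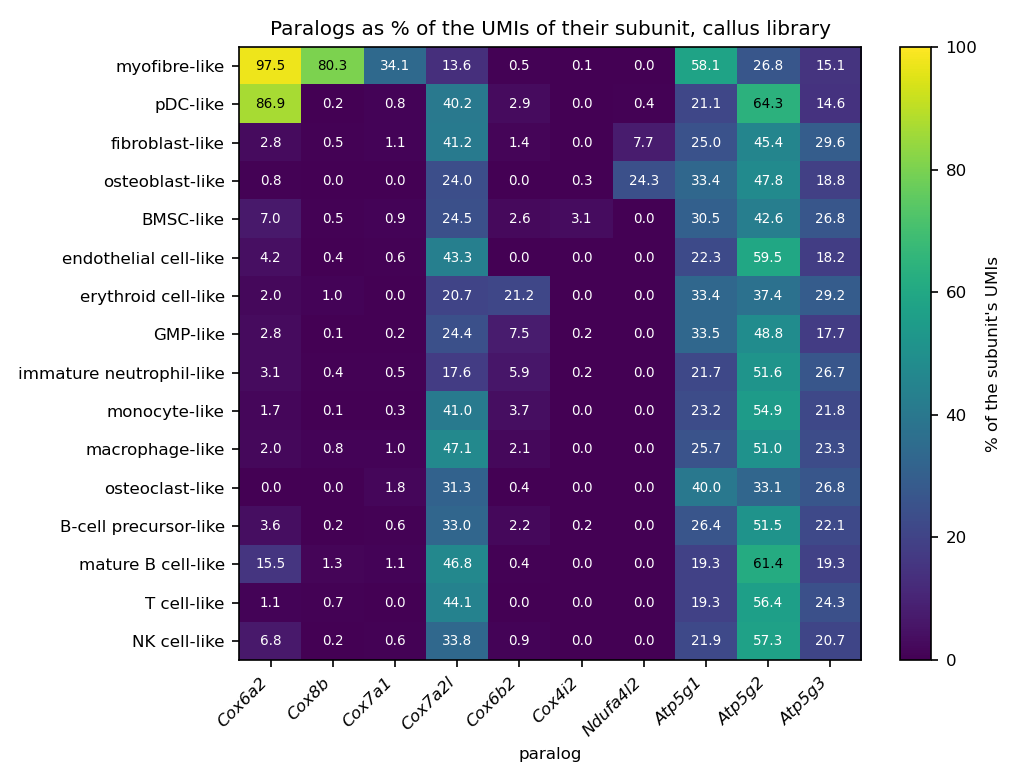
Percent of a subunit's UMIs that come from each paralogous gene, by cell type in the callus library (pDC, plasmacytoid dendritic cell; BMSC, marrow stromal cell; GMP, granulocyte-monocyte progenitor). Cox6a2 supplies most COX6A UMIs in myofibre-like (97.5%) and plasmacytoid dendritic-like cells (86.9%), whereas Cox8b (80.3%) and Cox7a1 (34.1%) reach high shares in myofibre-like cells and stay under 2% in the other types drawn.

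Cox6a2 was also high in 1 type of blood cell. Plasmacytoid dendritic-like cells, which resemble the interferon-making dendritic cells marked by Siglech, held 75 Cox6a2 UMIs in 10 intact cells and 523 in 55 callus cells, 1115 and 1083 CPM. Cox6a2 made up 84.3% [75.02–91.1] and 86.9% [83.9–89.5] of their COX6A UMIs. After each cell was thinned to 1000 UMIs, 60% of the intact and 63.6% [49.6–76.2] of the callus cells still had a Cox6a2 UMI. The other muscle genes were near 0 there: Cox8b had 0 and 1 UMIs and Acta1, skeletal actin, 3 and 39. Cox6a2 UMIs per Acta1 UMI were 25 and 13.4 in these cells, against 0.0827 and 0.0676 in myofibre-like cells and 0.0820 and 0.0566 in fibroblast-like cells. Muscle RNA was found in the other types too. Myofibre-like cells held 2.35 (intact) and 2.21 (callus) nuclear member UMIs per Acta1 UMI. At that rate, the Acta1 UMIs of the other types would bring 0.0333% to 2.44% of their nuclear member UMIs (intact, 10 types). For the callus library the range was 0.241% to 2.78% (16 types). The ratio of Cox6a2 to Acta1 was also high in intact monocyte-like (1, on 7 and 7 UMIs) and B-cell precursor-like cells (0.5, on 19 and 38 UMIs), and the part of muscle RNA in these values was not tested. In mature B-like cells of the callus library Cox6a2 made up 15.5% of COX6A, on 18 UMIs beside 151 of Acta1.

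Other minor forms were found in few cells. Cox6b2, known from testis, made up 21.2% [17.5–25.2] of COX6B UMIs in callus erythroid-like cells (97 UMIs) and 14.1% [6.64–25.02] in the 14 intact ones. In callus granulocyte-monocyte progenitor-like cells it was 7.45% (436 UMIs), and in callus endothelial-like cells 0 of 184 UMIs. Ndufa4l2, a relative of Ndufa4 known as a hypoxia-responsive gene, made up 24.3% [18.9–30.5] of the pair's UMIs in 29 callus osteoblast-like cells and 3.72% and 7.66% in intact and callus fibroblast-like cells. It had 0 UMIs in myofibre-like cells of both libraries.

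Outside muscle, osteoclast-like cells had the highest shares of both genomes among types with at least 10 cells, the bone-resorbing type known for dense mitochondria. These 11 callus cells had a mitochondrial share of 5.83% [5.75–5.91] and a nuclear share of 7.16% [7.07–7.25]. Against callus monocyte-like cells, the ratios were 3.15 for the mitochondrial and 3.01 for the nuclear genes, and against macrophage-like cells 2.21 and 3.67. Unlike in myofibre-like cells, nuclear and mitochondrial genes were high together, with 1.16 nuclear member UMIs per mitochondrial UMI. Complex III made up 13.8% [13.4–14.3] of their nuclear member UMIs, against 11.4% and 11.2% in myofibre-like cells. Osteoclast-like cells were fewer than 20 and occurred in 1 library.

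Both genomes had lower shares along the neutrophil series. Granulocyte-monocyte progenitor-like cells, the precursors of this lineage, had a nuclear share of 3.08% in 24 intact and 2.98% in 304 callus cells and a mitochondrial share of 1.92% and 2.37%. Immature neutrophil-like cells had nuclear shares of 1.19% and 1.41% and mitochondrial shares of 0.324% and 0.813%. By pooled UMIs, mature neutrophil-like cells were the lowest of the 11 types compared, at 0.830% and 1.13% nuclear and 0.225% and 0.606% mitochondrial. The median myofibre-like cell had a lower mitochondrial share, 0.0827% and 0.181% against 0.157% and 0.240% in the median mature neutrophil-like cell. Pooled, the ratio of mature neutrophil-like to progenitor-like cells was 0.270 and 0.381 for the nuclear and 0.117 and 0.256 for the mitochondrial genes. The mitochondrial genes were thus lower by more in both libraries.

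Gene by gene, 65 of 82 tested nuclear members were at least 2-fold lower in callus mature neutrophil-like than progenitor-like cells (52.2% of all genes were) and 0 were higher (13.4% of all genes). Their median log2 ratio was -1.50, against -1.11 over all genes tested. Most genes were thus lower in the mature cells, the members somewhat more than the median gene. Atp5g1 stood at 665 CPM in the progenitor-like and 89.4 CPM in the mature cells, a ratio of 0.134 [0.101–0.175]. Cycs stood at 350 and 71.9 CPM, a ratio of 0.205. Sdhb was among those that were not past 2-fold, at 115 and 86.2 CPM. All 9 complex III genes were past 2-fold lower, with the lowest median of the complexes, -1.77.

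B-lineage cells had mitochondrial shares above those of the progenitor-like cells and nuclear shares below them. Mature B-like cells had mitochondrial shares of 2.46% and 3.04% and nuclear shares of 1.83% and 1.54%, and B-cell precursor-like cells 2.26% and 2.44% with 2.57% and 2.93%. The nuclear ratio of mature B-like to precursor-like cells was 0.714 (intact) and 0.526 (callus), while the mitochondrial ratio was 1.08 and 1.24. The genomes therefore ran in opposite directions here too, by less than in muscle. Across types the 2 shares were weakly related, with a Spearman coefficient of 0.2 over 11 intact and 0.201 over 17 callus types that share libraries and reference genes. These values depended on the myofibre-like cells. Without them the coefficient was 0.370 over 10 intact and 0.35 over 16 callus types. The Pearson coefficient went from -0.305 to 0.612 (intact) and from -0.327 to 0.395 (callus).

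Between the libraries, the mitochondrial share was higher in callus in all 11 types that had at least 20 cells in each. The ratio of callus over intact was 1.49 [1.47–1.52] in fibroblast-like, 1.91 in endothelial-like, 2.10 in myofibre-like, 2.51 in immature neutrophil-like and 2.69 in mature neutrophil-like cells, and from 1.08 to 1.28 in the other 6. The myofibre-like value was not stable: after thinning each cell to 2000 UMIs it was 0.865. Thinning left out the cells under 2000 UMIs, 29 of 75 intact and 123 of 244 callus cells of this gate. As a mean of cells, the mitochondrial ratio of granulocyte-monocyte progenitor-like cells was 0.998. The nuclear share had no common direction. It was lower in callus in 7 types, with ratios of 0.769 in myofibre-like, 0.841 in mature B-like, 0.880 in fibroblast-like, 0.881 in monocyte-like, 0.926 in endothelial-like, 0.952 in T-like and 0.968 in granulocyte-monocyte progenitor-like cells, the last turning to 1.06 as a mean of cells and 1.03 after thinning. It was higher in 4, at 1.14 in B-cell precursor-like, 1.17 in macrophage-like, 1.18 in immature neutrophil-like and 1.37 in mature neutrophil-like cells. In callus mature neutrophil-like cells, both pooled shares lay above the upper quartile of single cells (1.07% nuclear, 0.414% mitochondrial). Their per-cell medians were 0.808% (intact) and 0.883% (callus) nuclear and 0.157% and 0.240% mitochondrial, closer between the libraries than the pooled values. Cells with over 10% mitochondrial UMIs numbered 7 in the intact and 70 in the callus library. Library, tissue and injury cannot be told apart in these ratios.

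Few nuclear members were past 2-fold between the libraries. In fibroblast-like cells 0 of 81 were higher and 0 lower, where 2.89% and 1.38% of all genes were, and their median log2 ratio was -0.20 against 0.04 over all genes. In monocyte-like cells 0 of 81 were higher and 0 lower (5.82% and 1.32% of all genes), with a median of -0.12. In mature B-like cells 0 of 75 were higher and 0 lower (3.73% and 1.65% of all genes), with a median of -0.31. The nuclear members were thus shifted together by a little, with no single gene past 2-fold in these 3 types. In myofibre-like cells 1 of 83 was higher and 0 lower, where 16% and 2.86% of all genes were, with a median of -0.40 against 0.09. The 1 was Cox6a1, whose ratio was 6.99 [2.27–35.0] on 3 and 55 UMIs. Cox6a1 reached the UMI minimum, summed over both libraries, mostly through callus, the library where it was higher. Cells with few muscle markers were 4 of 75 in the intact and 25 of 244 in the callus gate. Their part in this ratio was not tested.

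Mature neutrophil-like cells held 12 of the 18 cases past 2-fold higher over the 7 types, and after thinning each cell to 2000 UMIs the 18 became 5. In these cells 12 of 59 were higher in callus and 0 lower (11.9% and 1.14% of all genes), with a median of 0.57 against 0.12. Of the 12, 6 belong to complex V, 3 to complex I, 2 to complex IV and 1 to complex III. Ndufc2, a complex I subunit, had 3 UMIs in intact and 48 in callus, 6.0 and 76.7 CPM, a ratio of 12.8 [4.12–64.1]. Atp5g1 stood at 12 and 89.4 CPM, a ratio of 7.45 [3.22–21.2]. Ndufab1, the acyl carrier protein of complex I, stood at 20 and 86.2 CPM and Atp5g2 at 36.0 and 153 CPM. The intact values rest on 3 to 18 UMIs for these 4 genes. Ndufc2 (3 intact and 48 callus UMIs) and Atp5g1 (6 and 56) reached the UMI minimum, summed over both libraries, mostly through callus. Genes that enter in this way could be called in the higher direction only. The 12 come from 59 of the 88 members, those with enough UMIs. Whether they exceed the 11.9% of all genes, which had to reach the same minimum, was not tested.

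Immature neutrophil-like cells had 3 of 81 members higher and 0 lower, where 18.3% and 1.61% of all genes were, with a median of 0.34 against 0.40. Among them were Sdhc, the membrane anchor of complex II (2.23 [1.23–4.43]), and Cox6b2 (5.98 [2.27–22.3] on 4 and 111 UMIs). Cox6b2 also reached the UMI minimum mostly through callus, the library where it was higher. B-cell precursor-like cells had 2 of 80 higher and 0 lower (8.85% and 6.49% of all genes), which were Sdhc at 2.34 [1.26–4.81] and Atp5g1 at 2.03 [1.72–2.42].

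Ndufb1-ps, the nuclear complex I member with the most UMIs, was lower in callus in all 7 types compared gene by gene. It stood at 290 CPM in intact and 168 CPM in callus fibroblast-like cells, at 2757 and 1498 CPM in myofibre-like cells and at 1029 and 581 CPM in monocyte-like cells. The ratios ran from 0.543 [0.497–0.594] in myofibre-like to 0.734 [0.675–0.798] in immature neutrophil-like cells, with every interval below 1. Ndufa3, another complex I subunit, was the other nuclear member with all 7 ratios below 1, from 0.610 to 0.845, and 2 of its intervals reached 1. The annotation calls Ndufb1-ps (chr12:101968090-101977068) a long noncoding RNA of a bidirectional promoter, so what its UMIs count is uncertain. Both were singled out after their values were seen. The 7 types come from the same 2 libraries, and how many of all genes had 7 ratios below 1 was not counted.

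Among the mitochondrial genes, the number past 2-fold followed the shift of the whole genome in each type. It was 7 higher of 12 tested in myofibre-like, 9 of 12 in mature neutrophil-like and 11 of 13 in immature neutrophil-like cells. Of all genes 16%, 11.9% and 18.3% were higher in these types. The myofibre-like shift turned direction after thinning, as given above. The number higher was 0 in fibroblast-like, monocyte-like, mature B-like and B-cell precursor-like cells, where 2.89%, 5.82%, 3.73% and 8.85% of all genes were. In those 4 types, mt-Atp8 was past 2-fold lower while the sum of the 13 genes was higher. Of all genes 1.38%, 1.32%, 1.65% and 6.49% were past 2-fold lower there. In monocyte-like cells mt-Nd6, the only member on the other strand, was past 2-fold lower as well (0.497).

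The make-up of the mitochondrial UMIs therefore differed between the libraries. Of all mitochondrial UMIs, mt-Atp8 made up 4.61% in the intact and 1.34% in the callus library, a ratio of 0.291 [0.281–0.302]. The ratio was below 1, with its interval, in 11 of 11 types, from 0.241 in monocyte-like to 0.449 in mature neutrophil-like cells. In fibroblast-like cells the share went from 4.60% (1405 UMIs) to 1.37% (524 UMIs) and in B-cell precursor-like cells from 4.96% (676 UMIs) to 1.31% (909 UMIs). The lowest intact share of any of the 11 types (2.39%) lay above the highest callus share (1.63%), so the ranges did not overlap. The same held in the other direction for mt-Atp6, with a highest intact share of 15.3% and a lowest callus share of 15.8%. The ranges of the other mitochondrial genes overlapped. How many of all genes have ranges that do not overlap between the libraries was not counted, so no background stands beside these 2 genes. All types come from the same 2 libraries and are not replicates. In CPM, mt-Atp8 was lower in callus in 10 of the 11 types, with mature neutrophil-like cells at a ratio of 1.21.

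Its partner on the same RNA went the other way, so the 2 ratios cannot be read as levels of 2 separate RNAs. mt-Atp6, whose first 43 bases are the capitals printed above, made up 13.96% in the intact and 18.1% in the callus library, a ratio of 1.30 [1.27–1.32], and was above 1 in 11 of 11 types. The second overlapping pair had a similar, smaller pattern, in which mt-Nd4l made up 5.0% and 3.12% (0.623 [0.604–0.643], with the interval below 1 in 9 of 11 types) and mt-Nd4 7.35% and 7.92% (1.08). A pair of other complex I genes had lower shares in callus too. The share of mt-Nd3 was 1.80% and 1.19%, a ratio of 0.664 whose interval lay below 1 in 6 and above 1 in 1 of the 11 types. That of mt-Nd6 was 0.223% and 0.0912%, a ratio of 0.409 whose interval lay below 1 in 5 types. The complex IV genes had ratios of 1.19 (mt-Co2), 1.11 (mt-Co3) and 0.933 (mt-Co1), and the complex III gene mt-Cytb 0.982.

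**Figure D5:**
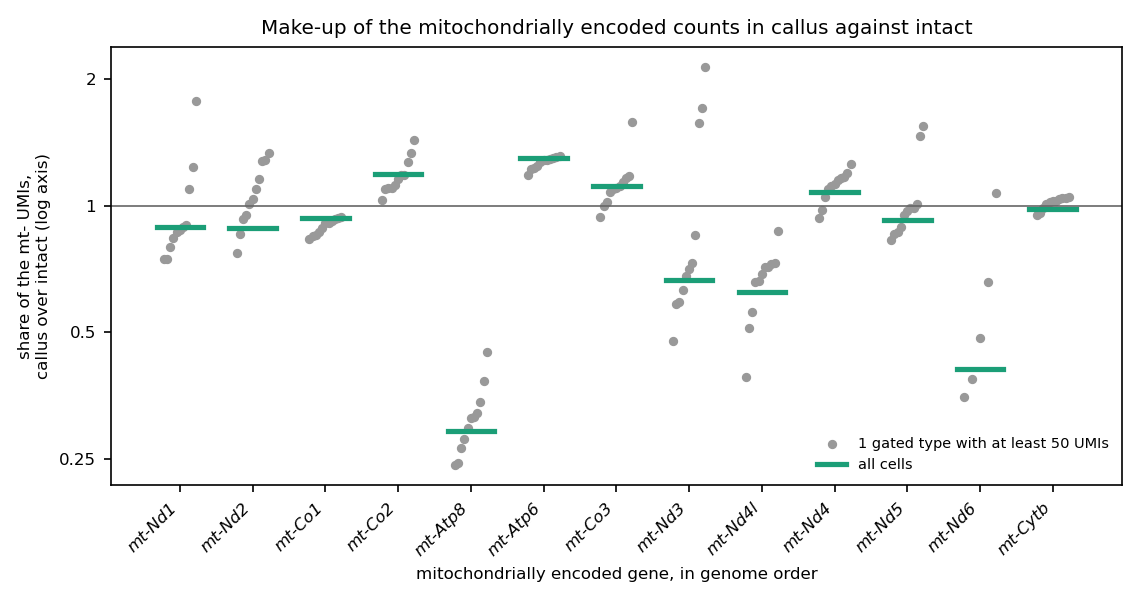
Each mitochondrial gene's share of the mitochondrial UMIs, callus over intact (log axis), in genome order along the x axis, with a grey point per cell type that had at least 50 UMIs of the gene and a green bar for all cells. The types lie between 0.241 and 0.449 for mt-Atp8 and between 1.18 and 1.31 for mt-Atp6, and mt-Nd3 has types on both sides of 1.

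Barcodes with under 500 genes had a low mt-Atp8 share in callus as well (4.77% of mitochondrial UMIs in the intact and 1.27% in the callus library). What sets the make-up was not tested. Without mt-Atp8, mt-Nd4l, mt-Nd6 and mt-Nd3, the mitochondrial share remained higher in callus in the 11 types, with ratios from 1.14 in B-cell precursor-like to 2.78 in mature neutrophil-like cells and 1.59 [1.56–1.61] in fibroblast-like cells.

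Genes that feed or build the respiratory chain gave context for the muscle difference. In myofibre-like over fibroblast-like cells, 9 of 12 genes of the tricarboxylic acid cycle, which supplies the electrons, were at least 2-fold higher and 0 lower in both libraries, where 11.6% (intact) and 14.6% (callus) of all genes were higher and 62.5% and 49.9% lower. Of the carriers and channels tested, 5 of 6 (intact) and 6 of 7 (callus) were higher. Slc25a4, the muscle carrier that exchanges ADP and ATP, stood at 9803 and 5398 CPM against 432 and 329 CPM. Of 13 glycolysis genes tested, 8 were higher in both libraries, and 4 (intact) and 3 (callus) were lower. Hk1, Hk2 and Pfkp were lower in both. The median log2 ratio of the glycolysis list was 3.10 and 2.78, against 2.62 and 2.39 for the nuclear members. Summed, the list took 3.58% (intact) and 2.47% (callus) of UMIs outside the mitochondrial genes in myofibre-like cells. In fibroblast-like cells it took 0.172% and 0.133%. Among the higher genes was Aldoa, at 17799 and 11253 CPM against 254 and 184 CPM. Assembly factors for the complexes had 8 of 16 and 12 of 19 higher, and 0 and 1 lower.

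The genes that transcribe and maintain the mitochondrial genome had few members with enough UMIs. In the intact library 0 of 4 tested were higher and 3 were lower (11.6% and 62.5% of all genes), and in the callus library 3 of 7 were higher and 3 lower (14.6% and 49.9% of all genes), so the counts of lower genes lie near the background. The 3 lower genes of the intact library were Nrf1 and Gabpa, the nuclear factors whose motifs were searched above, and Polg, the mitochondrial DNA polymerase. Nrf1 had 2 and 8 UMIs in intact and callus myofibre-like cells against 56 and 45 UMIs in fibroblast-like cells. It passed the minimum of 50 UMIs mostly through the fibroblast-like cells, and in the intact library through them alone. Polrmt, the mitochondrial RNA polymerase, had 0 UMIs in myofibre-like cells of both libraries and 8 and 7 UMIs in fibroblast-like cells, too few to compare.

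In the neutrophil series most of the same lists were lower too. In callus mature neutrophil-like over progenitor-like cells, 9 of 12 tricarboxylic acid cycle genes and 22 of 29 assembly factors were at least 2-fold lower. Their median log2 ratios were -2.09 and -1.98, against 52.2% lower and a median of -1.11 over all genes. Of the transcription genes 10 of 16 were lower, with a median of -1.34, which lies near the values over all genes. Glycolysis was the list with the fewest lower genes, 4 of 15. Its glucose transporters Slc2a1 and Slc2a3 were higher, and these 2 of 15 lie near the 13.4% of all genes that were. Between the libraries, B-cell precursor-like cells had 5 of 12 glycolysis genes at least 2-fold higher in callus (Pfkl, Gapdh, Pgam1, Pkm and Ldha). Of all genes 8.85% were, and of the nuclear members 2 of 80. The median log2 ratio was 0.93 for the glycolysis list and 0.03 over all genes.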

How the data were processed

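Sorted cells of 1 intact and 1 callus pool were measured. The deposited files hold raw UMI counts per gene and barcode; per the file headers, the authors made them with Cell Ranger 6.0.0 on mm10, and the annotation release is not given in the sources used here. Barcodes with at least 500 genes were kept. A cell was given a type where at least 3 markers of a list were found and that list led the next by over 12 percentage points of its markers (23 lists, 179 markers, 1 not in the files); the markers were fixed, but this rule was set after cell numbers were seen. Cells with no clear lead were left out, and doublets were not otherwise treated; Scrublet (12 intact and 91 callus cells removed) was an alternative only. Counts were summed per type and library. Shares carry exact binomial and ratios exact conditional 95% intervals, which cover counting error only. Log2 ratios add 0.5 UMI and need 50 UMIs over the 2 groups, and 2-fold is a description. To compare shares across depths, cells were thinned to 1000 or 2000 UMIs, and cells with fewer were left out. Limits for a count of 0 use 3 counts.

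The members, lists and markers were chosen with earlier results of these data known. The genes named are the 13 mitochondrial genes, the 2 nuclear members of complexes I to V with the most UMIs, the paralogous subunits, the members past 2-fold between the libraries and the 5 that varied most over types; Cycs, Cox5a, Sdha and the examples of other lists were added after their values were seen. The scripts were tested on simulated data. Alternatives were other gene minima, a stricter gate, a limit on mitochondrial UMIs, per-cell means, thinning and Scrublet. Python 3.11.15, numpy 2.4.6, scipy 1.17.1, pandas 2.3.3, scanpy 1.11.5 and matplotlib 3.10.9 were used. The values of 1 member are not reported here.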

Additional observations from a re-analysis of the deposited data

Results flagged for a closer look

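The nuclear member share moved in opposite directions between the libraries in different cell types. Callus over intact, it was 0.769 in myofibre-like, 0.841 in mature B-like, 0.880 in fibroblast-like, 0.881 in monocyte-like, 0.926 in endothelial-like, 0.952 in T-like and 0.968 in granulocyte-monocyte progenitor-like cells. It was 1.14 in B-cell precursor-like, 1.17 in macrophage-like, 1.18 in immature neutrophil-like and 1.37 in mature neutrophil-like cells. With 1 library per group, the difference between types was not tested.

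Barcodes with under 500 genes were not used in the comparisons and still held mitochondrial UMIs. In the callus library 622 such barcodes had a mitochondrial share of 2.03% [2.01–2.05], and in the intact library 658 had 0.315% [0.309–0.320]. Their 4 globin genes took 81.6% and 94.1% of UMIs, and without globin the mitochondrial share was 11.0% and 5.30%.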

How the results depend on the processing

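No paired analysis was possible because each condition has 1 library and the labels give no replicate numbers. Of 290 alternative values, 194 stayed the same, 92 moved and 4 turned direction. Ratios and percents were called the same when they lay within the interval of the reported value. Counts have no interval and were judged by the size of their change. Myofibre-like over fibroblast-like, the intact mitochondrial ratio of 0.263 became 0.429 with cells of at least 200 genes, 0.170 with at least 1000, 0.213 with 1 more marker required, 0.354 as a mean of cells, 0.415 after thinning and 0.219 in cells with at least 5% muscle markers. The callus ratio of 0.370 became 0.463, 0.476, 0.350, 0.245, 0.224 and 0.188 under the same settings, 0.355 with at most 10% mitochondrial UMIs and 0.310 after Scrublet. The nuclear ratio became 6.20, 6.66, 7.45, 6.80 and 7.48 (intact; 200 genes, 1000 genes, mean of cells, thinning, 5% markers) and 5.83, 5.38, 7.36, 6.65 and 7.35 (callus), with 6.20 for 1 more marker and 6.32 after Scrublet. In fibroblast-like cells, callus over intact, the mitochondrial ratio of 1.49 became 1.47 (1000 genes), 1.43 (at most 10%), 1.69 (mean of cells), 1.60 (thinning) and 1.59 (without 4 genes), and the nuclear ratio of 0.880 became 0.864 (mean of cells). Nuclear members at least 2-fold lower in callus, 0 over 7 types, became 1 (1000 genes), 1 (Scrublet), 2 (thinning) and 4 (minimum of 10 UMIs), and those higher fell from 18 to 5 with thinning. Cox6a2 in callus myofibre-like cells became 94.8% of COX6A with at least 1000 genes. Direction turned for the granulocyte-monocyte progenitor-like mitochondrial (0.998) and nuclear (1.06) ratios as means of cells, for the nuclear one after thinning (1.03), and for the myofibre-like mitochondrial ratio after thinning (0.865; 0.865 to 4.11 over all settings). The causes were not tested. The 5% marker limit and the removal of 4 mitochondrial genes were chosen after seeing the data. Types with few cells and genes with few UMIs limit the precision, and 1 library per group allows no estimate of the spread between mice.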
